A study of Mus musculus with 24 samples.

Results

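The comparison described here sets skin libraries taken at lights on against skin libraries taken at lights off, in mice whose food was limited to 4 h a day. The members are 9 of the 24 libraries of the study: 6 at lights on (ZT0 and ZT24, where ZT is the time in hours since the light came on) and 3 at lights off (ZT12). Each was made from the RNA of whole back skin, pooled from 2 to 4 male C57BL/6NCrl mice, a common inbred strain, wild type and about 8 weeks old. All mice were housed with 12 h of light followed by 12 h of dark, and the labels give their hair follicles as resting (telogen). The 3 feeding groups differed in when chow was given during 18 to 21 days: from ZT0 to ZT4 in ED, from ZT5 to ZT9 in MD and from ZT12 to ZT16 in EN. Each group gave 2 lights-on libraries, 1 per day, and 1 lights-off library. Whether the skin at ZT0 and ZT12 was taken just before or just after the light and the food changed is not stated in the labels. The question put to the 9 libraries was which transcripts stood higher or lower at lights on than at lights off, whatever the hour of feeding.

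Skin keeps daily time through a molecular clock in which the activators Clock and Arntl (Bmal1) switch on their own repressors, the Per and Cry genes, and a set of output genes such as Dbp. In mouse skin, cells of the epidermis copy their DNA and divide at different hours of the day. Glucocorticoid hormone, which in mice peaks near the start of the dark phase, and the time of food are daily signals that reach skin from outside. Each of the gene groups below belongs to one of these processes or to the dermis and glands around them.

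Differences are given as lights on minus lights off on a log2 scale, so a positive value means a higher level at lights on, and levels are exon read counts per 1000000 exon reads after scaling (CPM). The fitted difference has feeding group as a term and comes with its standard error (SE). Total exon counts of the 9 libraries ran from 13222667 to 22634710. Feeding and light times were linked by design: at lights on, ED mice were 0 h, MD mice 19 h and EN mice 12 h past the last opening of food, and at lights off 12, 7 and 0 h. The sample descriptions carry a code from L1 to L8 that they do not explain, and no code holds both a lights-on and a lights-off library, so that in the 9 libraries code and light cannot be told apart.

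Some of the 9 libraries stood apart. The lights-on libraries ED24 and EN00 had high hair follicle transcripts: the hair shaft and anagen follicle list summed to 1029 and 3064 CPM in them, against 27.5 to 45.3 CPM in the other 4 lights-on libraries and 24.2 to 35.0 CPM at lights off. Krt71, a keratin of the inner root sheath of growing hair, was at 302.3 CPM in ED24 and 677.1 CPM in EN00 and at 4.49 CPM or less in the other 7. The lights-off libraries MD12 and EN12 had high liver transcripts: a list of 12 liver genes, added after the values were seen, summed to 78.96 and 137.2 CPM in them and to 5.53 CPM in ED12, against 3.10 to 18.7 CPM at lights on. Markers of skin were present throughout, with a basal keratinocyte list at 7198 to 9580.6 CPM at lights on and 7953 to 9130.5 CPM at lights off. The part of hair and liver RNA in the results below was not tested, and the results are given without ED24 and EN00 where these move them.

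**Figure D1:**
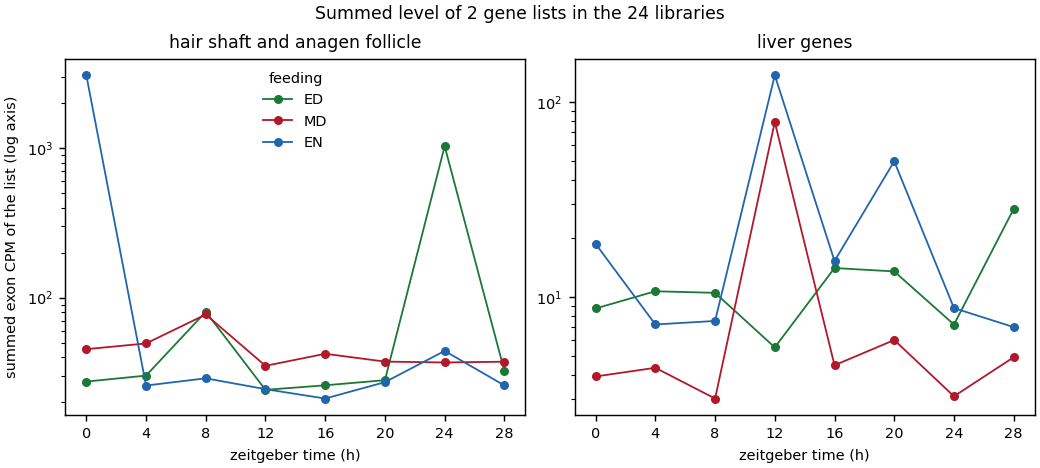
Summed exon CPM (log axis) of the hair shaft and anagen follicle list and of 12 liver genes in each of the 24 libraries, against zeitgeber time in hours, with one line per feeding group. Hair transcripts peak in EN00 and ED24, at 3064 and 1029 CPM, and liver transcripts in EN12 and MD12, at 137.2 and 78.96 CPM.

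Of 15742 genes tested, 2 rose at lights on, Fbn1 and Eln (0.0127% of genes tested, adjusted p = 0.0449 for both), and none was called lower (0%, smallest adjusted p = 0.0663). At an unadjusted p under 0.05 there were 761 genes higher (4.83%) and 1051 lower (6.68%), and DESeq2, run as an alternative on the same 9 libraries, called 85 higher (0.540%) and 150 lower (0.953%). With 5 residual degrees of freedom the description below therefore uses a second, simpler measure: a gene does not overlap when every lights-on library lies above, or every one lies below, all 3 lights-off libraries. This held for 408 genes higher at lights on (2.59% of genes tested) and 321 genes lower (2.04%). Without ED24 and EN00 it held for 670 genes higher (4.26%) and 556 lower (3.53%), since fewer libraries have to separate. The mean difference had the same sign in ED, MD and EN for 2481 genes on the higher side and 2628 on the lower side, which together is 32.5% of genes tested, and 3848 of these kept that sign in each group without ED24 and EN00.

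A fit over all 24 libraries, with feeding group and time of day as terms, estimated the same contrast with 16 residual degrees of freedom. It called 51 genes higher at lights on (0.324% of 15719 genes) and 44 lower (0.280%), Fbn1 and Eln among them. The 9 libraries are part of those 24, so it is another estimate of the error and not a second experiment. With the L code as a further term in this fit, a choice made after the data were seen, 28 genes were called higher (0.178%) and 18 lower (0.115%).

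The genes called belong to the elastic fibre of the dermis. Fbn1, which encodes fibrillin-1, the scaffold of elastic microfibrils (mouse build GRCm38, chromosome 2, 125300594 to 125506485), stood at 972.5 and 781.7 CPM in ED, 1113 and 1155 CPM in MD, and 1067 and 1135 CPM in EN at lights on. At lights off it stood at 462.2 CPM in ED, 425.2 CPM in MD and 322.1 CPM in EN. All 6 lights-on libraries lay above all 3 lights-off libraries, with means of 1037 ± 141 CPM (SD, n = 6) and 403.1 ± 72.6 CPM (SD, n = 3). The fitted difference was 1.36 (SE 0.158).

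Eln, which encodes tropoelastin, the rubber-like core of the same fibres (chromosome 5, 134702595 to 134747368), was at 130.5 and 95.6 CPM in ED, 212.9 and 146.3 CPM in MD, and 96.2 and 88.5 CPM in EN at lights on. At lights off it was at 50.2, 65.5 and 44.5 CPM in the same order. Again no library overlapped, and the fitted difference was 1.23 (SE 0.151). Fbn2, encoding a second fibrillin, ran from 14.7 to 24.6 CPM at lights on and from 5.64 to 10.7 CPM at lights off (difference 1.24, SE 0.217, adjusted p = 0.0675), and was named after its values were seen.

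In the 24-library fits Fbn1 kept its call with the L code as a term (1.83, adjusted p = 0.0055) and Eln did too (1.59, adjusted p = 0.0159). Without ED24 and EN00 the 7 remaining libraries gave 1.43 for Fbn1 (adjusted p = 0.0334) and 1.29 for Eln (adjusted p = 0.0640). Both calls depended on single libraries among the 9. The adjusted p of Fbn1 was above 0.05 when MD00, MD12, MD24, EN00 or EN24 was left out, and that of Eln when MD12, MD24, ED12, EN00 or EN24 was left out, with a highest value of 0.1289 for both, without EN00. Their differences moved little in these fits, from 1.16 to 1.59 for Fbn1 and from 1.11 to 1.31 for Eln. Over intron rows, which count reads from unspliced RNA, the differences were 1.05 for Fbn1 (adjusted p = 0.3181) and 0.65 for Eln (adjusted p = 0.2904). The Fbn1 introns were at 389.5 and 352.7 CPM at lights on in MD, below the 455.1 CPM of MD12, while in ED and EN the lights-on values were above lights off.

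Most other matrix genes had smaller differences, and none was called in the 9 libraries. Of 28 tested members of the extracellular matrix list, 22 had a value above 0, 13 had a positive difference in every feeding group and 5 did not overlap (Fbn1, Eln, Spon2, Adamts4 and Loxl1; 2.59% of all genes), with a list median of 0.19 beside 0.00 for all genes. Spon2, encoding a secreted matrix protein, had 33.6 and 39.6 CPM in ED, 13.3 and 20.7 CPM in MD, and 47.5 and 72.9 CPM in EN at lights on, against 5.38, 10.5 and 3.84 CPM at lights off. The gap in Spon2 was narrow in MD and wide in ED and EN, and the fitted difference was 2.26 (SE 0.489, adjusted p = 0.1239), larger than those of Fbn1 and Eln but with a larger error. Adamts4, a protease that cuts proteoglycans, was at 2.91 to 11.9 CPM at lights on and 0.833 to 2.54 CPM at lights off (1.66, SE 0.449, adjusted p = 0.204). With the L code as a term in the 24-library fit, Spon2 and Adamts4 were called beside Fbn1 and Eln, 4 of 28 against 0.178% of all genes. Of the fibrillar collagens, Col1a1 differed by 0.14 (adjusted p = 0.7798) and Col3a1 by 0.28 (adjusted p = 0.5132). Col3a1 was positive in every group and Col1a1 was not. The 20 genes of collagen folding and secretion had a median of 0.01.

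Dermal fibroblast markers gave no such separation: 5 of 10 lay above 0, the list median was -0.01, and their summed level ran from 33210 to 76917 CPM at lights on and from 32248 to 56807 CPM at lights off. In whole skin, more cells of a type and more RNA per cell cannot be told apart, here and in all groups below.

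**Figure D2:**
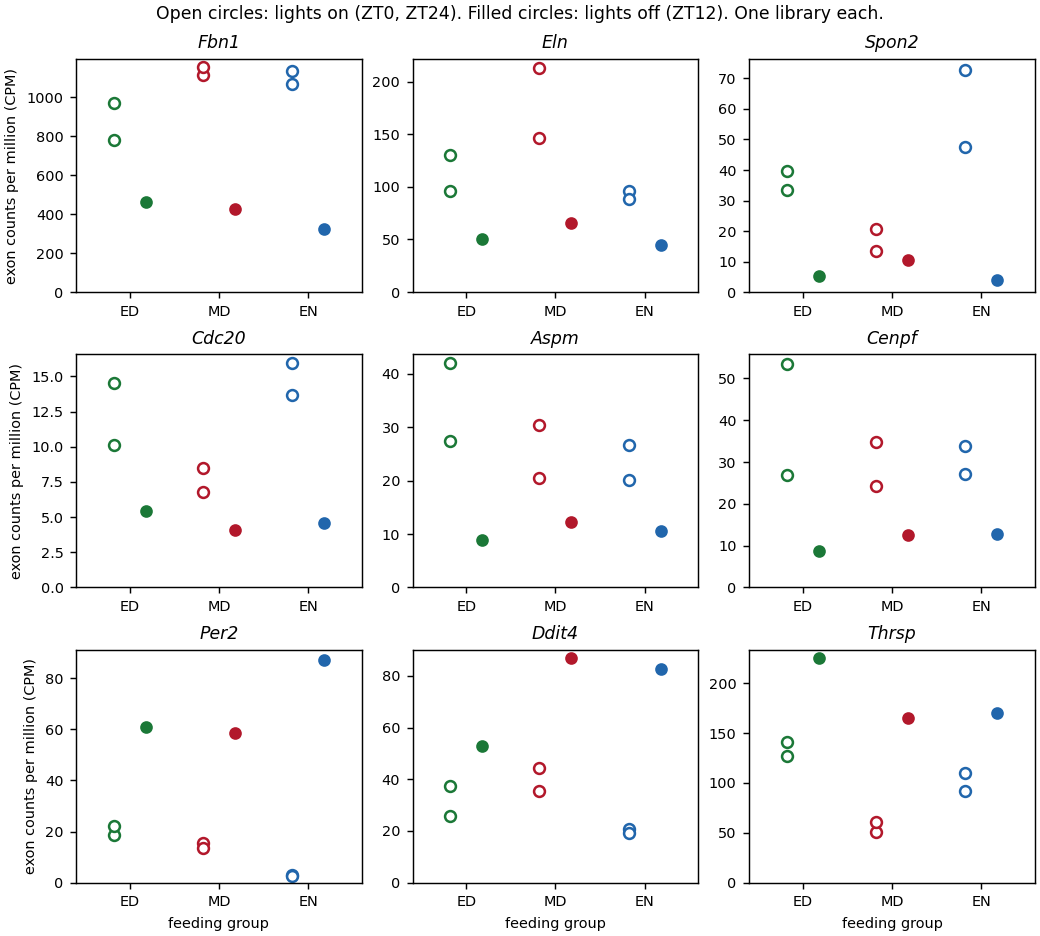
Exon CPM of 9 genes in the 9 libraries, by feeding group, with each circle 1 library (open, lights on at ZT0 and ZT24; filled, lights off at ZT12). Fbn1, Eln, Spon2, Cdc20, Aspm and Cenpf lie higher in every lights-on library than in any lights-off library, and Per2, Ddit4 and Thrsp lie lower.

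Mitotic genes stood higher at lights on as a group. All 30 tested members of the mitosis list had a value above 0, 26 had a positive difference in ED, MD and EN alike, and 19 did not overlap, beside 2.59% of all genes. The list median was 0.78, and it was 1.09 in ED, 0.34 in MD and 0.79 in EN. None of the 30 passed the test in 9 libraries, 24 had an unadjusted p under 0.05 on the higher side (4.83% of all genes), and 10 were called higher in the 24-library fit, beside 0.324% of all genes. With the L code as a term 7 were called, beside 0.178% of all genes.

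Cenpf, a kinetochore protein, had the largest fitted difference in the list. It was at 26.8 and 53.5 CPM in ED, 34.9 and 24.4 CPM in MD, and 33.8 and 27.2 CPM in EN at lights on, and at 8.80, 12.5 and 12.7 CPM at lights off. No library overlapped, and the difference was 1.53 (SE 0.256, adjusted p = 0.0663, and 0.0111 in the 24-library fit). Aspm, a spindle pole protein, was at 27.4 and 42.0 CPM in ED, 30.3 and 20.5 CPM in MD, and 26.7 and 20.2 CPM in EN, against 8.80, 12.2 and 10.6 CPM at lights off (1.37, SE 0.223, adjusted p = 0.0663).

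Cdc20, the activator of the anaphase-promoting complex, was at 10.1 and 14.5 CPM in ED, 6.78 and 8.46 CPM in MD, and 15.97 and 13.7 CPM in EN, against 5.45, 4.05 and 4.61 CPM at lights off. Its difference was 1.25 (SE 0.198, adjusted p = 0.0663). The B-type cyclins Ccnb1 and Ccnb2, which drive entry into mitosis, had differences of 1.28 (SE 0.247) and 1.16 (SE 0.207), with ranges of 10.2 to 25.7 CPM for Ccnb1 and 5.15 to 9.87 CPM for Ccnb2 at lights on. At lights off Ccnb1 was at 5.60 to 6.29 CPM and Ccnb2 at 2.69 to 3.78 CPM. Cenpe, a kinetochore motor, differed by 1.35 (SE 0.277), Kif23, a motor of the central spindle, by 0.93 (SE 0.198) and Prc1, which bundles microtubules between the separating chromosomes, by 0.76 (SE 0.173). The libraries overlapped in the other 11 members, whose differences ran from 0.22 for Ttk to 0.89 for Cdk1, the kinase that the B-type cyclins activate, with 0.82 for Plk1 and 0.45 for Aurkb, which are mitotic kinases.

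Further genes of dividing cells outside the list were among those of smallest p or were named after their values were seen. Ckap2, a spindle-associated protein named by rule, was at 7.18 to 12.0 CPM at lights on and 3.14 to 4.24 CPM at lights off (1.19, SE 0.189, adjusted p = 0.0663). Nek2, a centrosome kinase, had 3.69 to 9.42 CPM against 1.75 to 2.18 CPM (1.44, SE 0.287). Anln, a protein of the cleavage furrow, had 30.3 to 48.5 CPM against 22.7 to 23.3 CPM (0.76, SE 0.128). In each of the 3 the lights-on and lights-off libraries did not overlap.

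ED24, which carried the hair transcripts, was the highest library for Cenpf, Aspm, Ccnb1, Cenpe and Mki67. Without ED24 and EN00 the list median of mitosis was 0.52, 19 of 30 members still did not overlap, beside 4.26% of all genes, and 8 were called in the 24-library fit without them. The 15 libraries that the contrast did not use gave a separate reading of the same genes. In them, those within 4 h of lights on (ZT20, ZT4 and ZT28) were set against those within 4 h of lights off (ZT8 and ZT16), and no gene passed edgeR's test (smallest adjusted p = 0.9999) or that of DESeq2, with 271 genes higher and 259 lower at an unadjusted p under 0.05 in edgeR. All 30 mitotic genes lay above 0, with a median of 0.26, and 9 had an unadjusted p under 0.05 on the higher side, beside 1.73% of 15631 genes. On the lower side that share of all genes was 1.66%. Aspm had 0.57, Ccnb1 0.58 and Cdc20 0.55 in these libraries. The groups were not alike in the mean log2 CPM of the mitosis list, centred per gene. In ED and EN every library around lights on lay above those around lights off. In MD the mean was 0.19 in MD20, -0.45 in MD04 and -0.44 in MD28, against -0.26 in MD08 and -0.10 in MD16. The extracellular matrix list did not lean to the higher side in the 15 libraries, with 11 of 28 members above 0 and a median of -0.04. In them Fbn1 had 0.58 and Eln 0.30.

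Many mitotic genes share promoter elements, and their values here lay on the same side of 0, so a few of their promoters are shown. The CHR (cell cycle genes homology region, searched as TTTGAA) and the CCAAT box (CCAAT) are elements known from promoters of genes expressed late in the cell cycle, and both strands were searched. RefSeq windows of build GRCm38.p6, from 250 bases before to 50 bases after a start, were found for 25 of the 30 mitosis genes, in 26 windows. The CHR letters were in 80.8% of these 26 windows, against 17.9% of 32851 windows of all genes, and both elements were in 76.9% against 6.95%. In the 29 windows of 24 genes of DNA replication and S phase, the CHR letters were in 10.3% and both elements in 6.9%. The 250 bases before the start are given for 4 genes, 5′ to 3′ on the gene's strand, with CHR and CCAAT letters of either strand in capitals, and in the capitals shown no element overlapped another.
Cdc20 (chr4:118437344-118437593, minus strand): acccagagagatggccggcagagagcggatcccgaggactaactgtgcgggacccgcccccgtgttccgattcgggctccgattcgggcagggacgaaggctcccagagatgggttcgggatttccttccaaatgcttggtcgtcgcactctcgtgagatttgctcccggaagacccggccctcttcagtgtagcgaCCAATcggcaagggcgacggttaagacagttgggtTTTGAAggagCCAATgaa
Ccnb2 (chr9:70421555-70421804, minus strand): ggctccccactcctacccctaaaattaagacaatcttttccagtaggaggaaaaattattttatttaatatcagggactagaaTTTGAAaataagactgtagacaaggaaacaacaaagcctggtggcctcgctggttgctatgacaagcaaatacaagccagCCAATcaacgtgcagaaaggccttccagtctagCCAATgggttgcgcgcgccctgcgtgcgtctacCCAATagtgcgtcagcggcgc
Prc1 (chr7:80294226-80294475, plus strand): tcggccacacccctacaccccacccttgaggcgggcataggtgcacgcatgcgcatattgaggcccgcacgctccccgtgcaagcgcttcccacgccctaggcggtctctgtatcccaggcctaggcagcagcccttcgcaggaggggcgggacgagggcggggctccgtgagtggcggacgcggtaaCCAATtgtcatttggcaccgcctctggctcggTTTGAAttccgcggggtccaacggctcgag
Ccnb1 (chr13:100786487-100786736, minus strand): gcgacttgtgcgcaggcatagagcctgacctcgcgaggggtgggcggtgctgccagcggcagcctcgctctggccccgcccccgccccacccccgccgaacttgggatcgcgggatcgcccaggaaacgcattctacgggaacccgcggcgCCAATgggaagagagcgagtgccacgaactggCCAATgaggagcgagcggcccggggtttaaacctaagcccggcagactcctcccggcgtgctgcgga
In these stretches Cdc20 holds 1 CHR between 2 CCAAT boxes close to the start, Ccnb2 holds 3 CCAAT boxes and 1 distant CHR, Prc1 holds 1 of each, and Ccnb1 holds 2 CCAAT boxes and no TTTGAA. The full window of Ccnb2, which runs past the start, holds 2 CHR matches. Prc1 has another RefSeq start, and the 250 bases before it hold 1 CCAAT box and no TTTGAA, with 1 CHR in its full window. Only the letters TTTGAA were searched as the CHR, so a variant of the element would not be marked. Whether the letters go with the size of a gene's difference was not tested. A match of letters describes the window and is not a measured binding site.

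Genes of DNA replication lay on the other side of 0. Of the 30 tested members of the DNA replication and S phase list, 29 lay below 0, 19 were lower in every feeding group, and 2 (E2f1 and Pola1) did not overlap, beside 2.04% of all genes. The list median was -0.36, with group medians of -0.38 (ED), -0.45 (MD) and -0.23 (EN). Without ED24 and EN00 the list median was -0.50, and 8 of the 30 did not overlap on the lower side, beside 3.53% of all genes. None was called by edgeR over 9 libraries, by edgeR over 24 or by DESeq2, and 8 had an unadjusted p under 0.05 on the lower side in the 9 libraries, beside 6.68% of all genes. Cdc6, which loads the replicative helicase, was at 2.07 to 6.48 CPM at lights on and 4.94 to 6.47 CPM at lights off (-0.68, SE 0.299). Mcm5, a subunit of that helicase, was at 12.7 and 27.6 CPM in ED, 9.64 and 23.8 CPM in MD, and 16.4 and 17.4 CPM in EN at lights on, against 34.3, 23.4 and 22.7 CPM at lights off.

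The 2 days of lights on gave different S phase levels in ED and MD. The mean log2 CPM of the list, centred per gene, was -0.38 in ED00 and 0.43 in ED24, beside 0.45 in ED12, and -0.49 in MD00 and -0.01 in MD24, beside 0.18 in MD12. The mitosis list was above its lights-off level in each pair, at 0.21 and 1.05 against -0.51 in ED, 0.15 and -0.06 against -0.39 in MD, and 0.54 and 0.25 against -0.43 in EN. In the 15 other libraries 29 of 30 S phase genes were below 0, with a median of -0.17. Of them 6 had an unadjusted p under 0.05 on the lower side, beside 1.66% of all genes. By list mean, every ED library around lights on lay below those around lights off. In MD the mean was -0.20 in MD20, -0.17 in MD04 and 0.04 in MD28, against 0.30 in MD08 and -0.56 in MD16. In EN, EN20 at 0.11 lay above EN16 at 0.06.

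Wee1, the kinase that holds cells back from mitosis, lay on the opposite side of the mitotic genes. It was at 19.2 and 25.2 CPM in ED, 24.6 and 23.6 CPM in MD, and 9.81 and 13.4 CPM in EN at lights on, against 38.4, 43.0 and 55.2 CPM at lights off. No library overlapped, and the difference was -1.32 (SE 0.235, adjusted p = 0.0684). Its introns differed by -1.38 (adjusted p = 0.0435), which passed the test, though no intron row passed without ED24 and EN00. Of the 20 genes of the G1 phase and growth arrest list, Wee1 was the sole member that did not overlap, and the list median was -0.06.

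**Figure D3:**
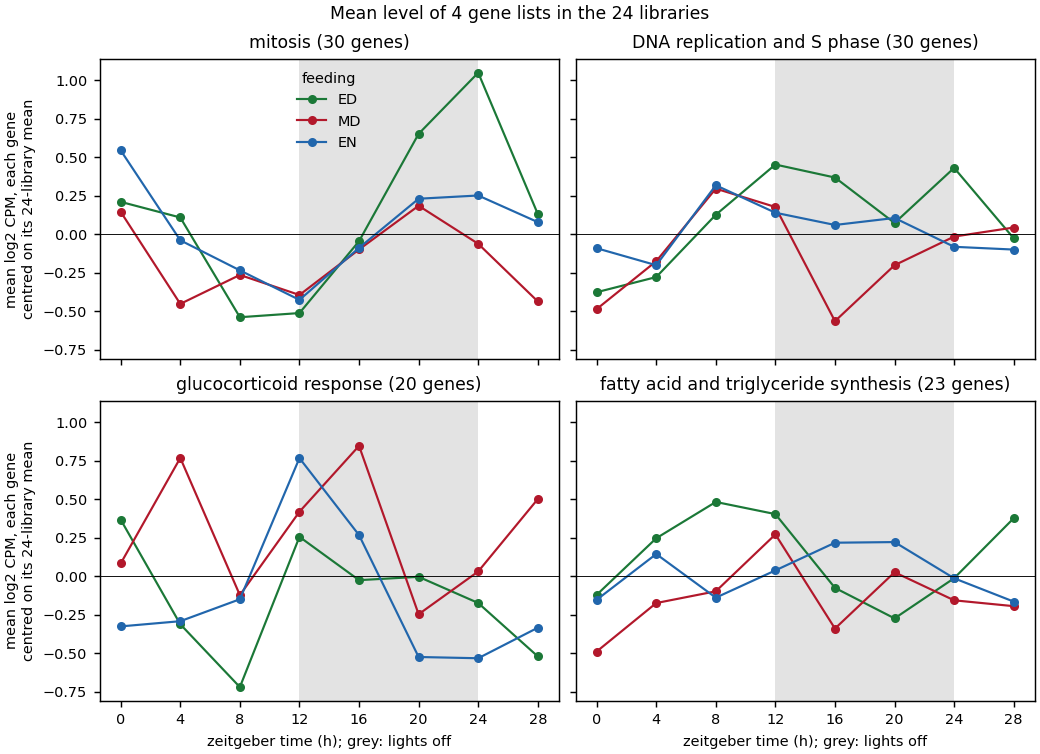
Mean log2 CPM of the members of 4 lists, each gene centred on its mean over 24 libraries, against zeitgeber time in hours, with one line per feeding group and the dark phase in grey. The mitosis list has its 3 ZT12 values between -0.51 and -0.39 and its ZT0 and ZT24 values between -0.06 and 1.05. In MD its values at ZT4 and ZT28, -0.45 and -0.44, lie below the -0.39 of ZT12.

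Clock genes split into those that kept 1 direction across the feeding groups and those that did not. Of the 21 genes of the clock list reported here, 4 were lower at lights on in every group (Per1, Per2, Gm129 and Tef) and 3 were higher in every group (Npas2, Csnk1d and Csnk1e). Tef was level in MD (-0.0098), where MD24 at 144.4 CPM lay above MD12 at 133.1 CPM, and fell in ED (-1.32) and EN (-2.42). Csnk1e was level in EN (0.017) and did not keep its sign in every group without ED24 and EN00. Per1, Per2 and Gm129 did not overlap on the lower side (2.04% of all genes) and Csnk1d on the higher side (2.59%). The Csnk1d difference was small, at 0.11 (SE 0.0886), and EN00 at 93.0 CPM nearly touched MD12 at 92.8 CPM. None of the 21 was called by edgeR over 9 libraries or over 24 with feeding group and time of day as terms. With the L code as a further term, 4 were called lower (Per2, Per3, Tef and Cry2), beside 0.115% of all genes. At an unadjusted p under 0.05 in the 9 libraries 4 were higher, beside 4.83% of all genes, and 11 lower, beside 6.68%, and DESeq2 called 4, all lower, beside 0.953%.

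Per2, a core repressor of the clock (chromosome 1, 91415977 to 91459351), was at 18.5 and 22.2 CPM in ED, 15.4 and 13.6 CPM in MD, and 3.18 and 2.68 CPM in EN at lights on. At lights off it was at 60.8, 58.7 and 86.9 CPM. The lights-on values were lowest in EN, and no library overlapped. The fitted difference was -2.82 (SE 0.445, adjusted p = 0.0663), with group values of -1.58 (ED), -2.01 (MD) and -4.84 (EN), and these values differed between groups (edgeR's interaction test, adjusted p = 0.006183). The introns of Per2 passed the test, with -2.93 (adjusted p = 0.0469), though no intron row passed without ED24 and EN00. They were at 20.1 to 20.9 CPM in ED, 23.0 to 32.8 CPM in MD and 3.20 to 5.84 CPM in EN at lights on. At lights off they were at 100.4, 75.3 and 154.8 CPM. In the 15 other libraries Per2 was lower around lights on as well, with -1.38 (adjusted p = 0.9999).

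Per1, a second repressor that also answers to glucocorticoid, was at 67.3 and 58.6 CPM in ED, 81.3 and 93.3 CPM in MD, and 22.9 and 26.2 CPM in EN at lights on, against 114.1, 152.2 and 132.4 CPM at lights off. Its difference was -1.40 (SE 0.246, adjusted p = 0.0675). Gm129 (now named Ciart), a repressor of Clock and Arntl, was at 1.74 to 6.25 CPM at lights on and 6.41 to 13.2 CPM at lights off (-1.52, SE 0.314, adjusted p = 0.1107), and in MD the gap was 6.25 to 6.41 CPM. The E-box is the element that Clock and Arntl are known to bind, searched here as CACGTG, which reads the same on both strands. It was in 23.1% of 26 windows of 18 clock genes with a RefSeq window, against 7.15% of all windows. It was in 20% of 25 windows of the glucocorticoid list, 13.8% of those of the S phase list and 3.85% of those of the mitosis list. Per1 has 2 RefSeq starts, and the 250 bases before the upstream one are given with the E-box in capitals.
Per1 (chr11:69098699-69098948, plus strand): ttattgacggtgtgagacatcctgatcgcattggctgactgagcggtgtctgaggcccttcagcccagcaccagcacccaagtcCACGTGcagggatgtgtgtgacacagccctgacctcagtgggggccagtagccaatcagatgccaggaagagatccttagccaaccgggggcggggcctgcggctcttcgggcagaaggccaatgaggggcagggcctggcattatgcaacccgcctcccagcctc
The window of the other Per1 start holds no CACGTG.

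Arntl and several output genes had opposite signs between groups. Arntl had 59.5 and 51.0 CPM in ED, 48.7 and 36.8 CPM in MD, and 57.1 and 60.9 CPM in EN at lights on, against 16.1, 45.7 and 17.9 CPM at lights off: high at lights on in ED and EN and level in MD. Npas2, a relative of Clock, was also high at lights on in ED and EN and near level in MD, with differences of 2.18 in ED, 0.07 in MD and 2.30 in EN. Nr1d1 (Rev-erb alpha), which represses Arntl, was at 13.4 and 16.6 CPM in ED at lights on and 67.3 CPM at lights off. In MD it was at 75.7 and 82.8 CPM against 9.80 CPM, and in EN at 29.2 and 29.4 CPM against 29.5 CPM. The order was thus reversed in MD and level in EN, and the test of the difference between groups gave an adjusted p of 8.206e-04.

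Dbp, an output transcription factor, was at 8.05 and 11.5 CPM in ED and 5.69 and 4.56 CPM in EN at lights on, against 98.7 and 70.5 CPM at lights off. In MD it was at 31.3 and 41.4 CPM at lights on and 8.95 CPM at lights off, and the differences between groups passed the test (adjusted p = 0.001928). Nr1d2 (adjusted p = 0.006431) and Per3 (adjusted p = 0.0351) also differed between groups: Nr1d2 by -1.73 (ED), 1.22 (MD) and -1.88 (EN), and Per3 by -1.96, 0.13 and -3.02. For Dbp, Nr1d1 and Nr1d2 the fitted common difference, at -2.46, -0.21 and -1.05, averages over groups of opposite sign.

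**Figure D4:**
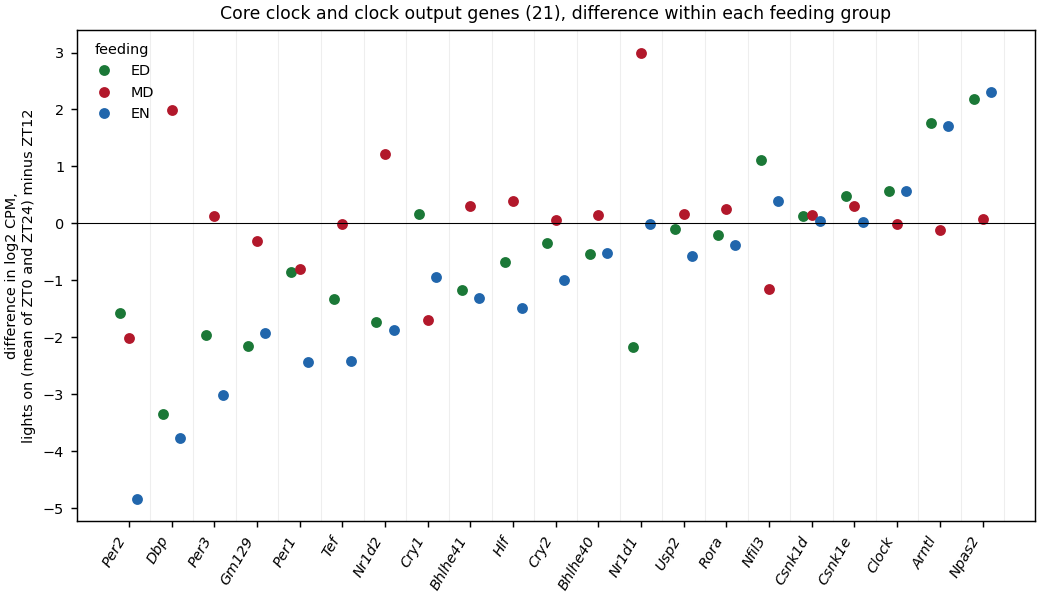
Difference in log2 CPM of the 21 clock and clock output genes within each feeding group, the mean of ZT0 and ZT24 minus ZT12, ordered by the fitted common difference. Per2, Gm129 and Per1 lie below 0 in all 3 groups, while Dbp, Nr1d2 and Nr1d1 lie above 0 in MD at 1.99, 1.22 and 2.999.

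In all, the interaction of feeding group and light was called for 9 of 15742 genes (0.0572%), with 3 residual degrees of freedom. Beside Dbp, Nr1d1, Nr1d2, Per2 and Per3 these were Alb, Angptl4, Myh7 and Scd2. Angptl4, an inhibitor of lipoprotein lipase that rises in fasting, was at 103.2 and 118.6 CPM in ED and 54.3 and 51.6 CPM in MD at lights on, against 48.1 and 12.5 CPM at lights off. In EN it was at 98.1 and 102.5 CPM against 105.4 CPM (adjusted p of the interaction = 0.0403). Scd2, a fatty acid desaturase with near-identical copies, was at 87.8 and 110.6 CPM in ED and 80.2 and 110.0 CPM in MD against 208.3 and 281.8 CPM, and at 188.1 and 211.2 CPM in EN against 73.0 CPM (adjusted p of the interaction = 0.0351). Myh7, a slow muscle myosin, was at 0.132 and 0.383 CPM in MD at lights on and 8.77 CPM in MD12, and at 11.3 to 30.8 CPM in the ED and EN libraries (adjusted p of the interaction = 0.006183).

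As a list mean, genes that answer to glucocorticoid hormone stood lower at lights on in MD, in EN and in ED24, but not in ED00. Of 20 tested members of the list, 15 were lower in every feeding group, 8 did not overlap (beside 2.04% of all genes), 1 was higher in every group (Pdk4), and the median was -0.62. By group the median was -0.18 for ED, -0.42 for MD and -1.19 for EN. None was called in the 9 libraries, 15 had an unadjusted p under 0.05 on the lower side (6.68% of all genes), and 2 (Ddit4 and Rhob) were called lower in the 24-library fit, beside 0.280% of all genes. With the L code as a term none was called in that fit, beside 0.115% of all genes. In the 15 other libraries 2 of the 20 lay above 0, the median was -0.12, and none had an unadjusted p under 0.05. Without ED24 and EN00 the list median was -0.56, and Fkbp5, Tsc22d3, Zbtb16 and Mt1 were no longer lower in every group. Each of these lay higher in ED00 than in ED12, with 176.2 against 129.9 CPM for Fkbp5. Pdk4 lost its common sign too, with 237.4 CPM in EN24 against 244.6 CPM in EN12. The mean log2 CPM of the list, centred per gene, was 0.37 in ED00 and -0.17 in ED24, beside 0.25 in ED12. It was 0.08 and 0.03 against 0.42 in MD, and -0.33 and -0.53 against 0.77 in EN. In MD the list mean was higher at MD04 (0.77), MD16 (0.85) and MD28 (0.50) than at MD12.

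Ddit4, an inhibitor of mTOR signalling (chromosome 10, 59949675 to 59951770), was at 37.5 and 25.9 CPM in ED, 35.6 and 44.5 CPM in MD, and 20.9 and 19.4 CPM in EN at lights on, against 52.9, 86.7 and 82.5 CPM at lights off (-1.32, SE 0.202, adjusted p = 0.0663). Errfi1, a feedback inhibitor of the EGF receptor, was at 136.4 and 82.7 CPM in ED, 124.8 and 152.0 CPM in MD, and 64.6 and 86.6 CPM in EN, against 170.1, 301.2 and 329.4 CPM (-1.33, SE 0.239). Both were without overlap. Tsc22d3 (GILZ), a mediator of the anti-inflammatory action of the hormone, had the largest difference in the list, -1.56 (SE 0.368), but overlapped: ED00 had 416.0 CPM and ED12 378.8 CPM.

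Fkbp5, a co-chaperone of the receptor, showed the same overlap in exons, with 176.2 and 85.5 CPM in ED at lights on beside 129.9 CPM in ED12. In its introns it did not: they were at 373.1 and 293.1 CPM in ED, 374.8 and 571.7 CPM in MD, and 94.8 and 166.8 CPM in EN at lights on, against 943.2, 1592 and 1220 CPM at lights off. The intron difference of -2.21 passed the test (adjusted p = 0.0262) where the exon difference of -1.06 did not (adjusted p = 0.204).

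Intron rows called 7 genes higher at lights on (0.0485% of 14419 tested) and 53 lower (0.368%). Of the 16 glucocorticoid genes with a tested intron row 6 fell: Fkbp5, Tsc22d3, Zbtb16, Errfi1, Mt1 and Mt2, with a list median of -1.14 in introns. The introns of Tsc22d3 were at 103.5 to 319.7 CPM at lights on and 566.6 to 838.4 CPM at lights off (-1.84, adjusted p = 0.0262). Those of Zbtb16, a zinc-finger repressor induced by the hormone, were at 514.6 to 2364 CPM and 2806 to 5382 CPM (-1.65, adjusted p = 0.0469). The metallothioneins Mt1 and Mt2, which bind metals, differed by -1.998 and -1.83 in introns and by -0.62 and -0.38 in exons. Intron calls did not hold without ED24 and EN00, where edgeR called 0 intron rows in either direction and 423 were higher and 600 lower at an unadjusted p under 0.05. The share of all counted reads (exon, intron and antisense) that fell in introns was itself higher at lights on in every group, at 38.5 and 39.1% against 32.7% in ED, 42.5 and 38.7% against 38.4% in MD, and 35.3 and 35.1% against 33.0% in EN.

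**Figure D5:**
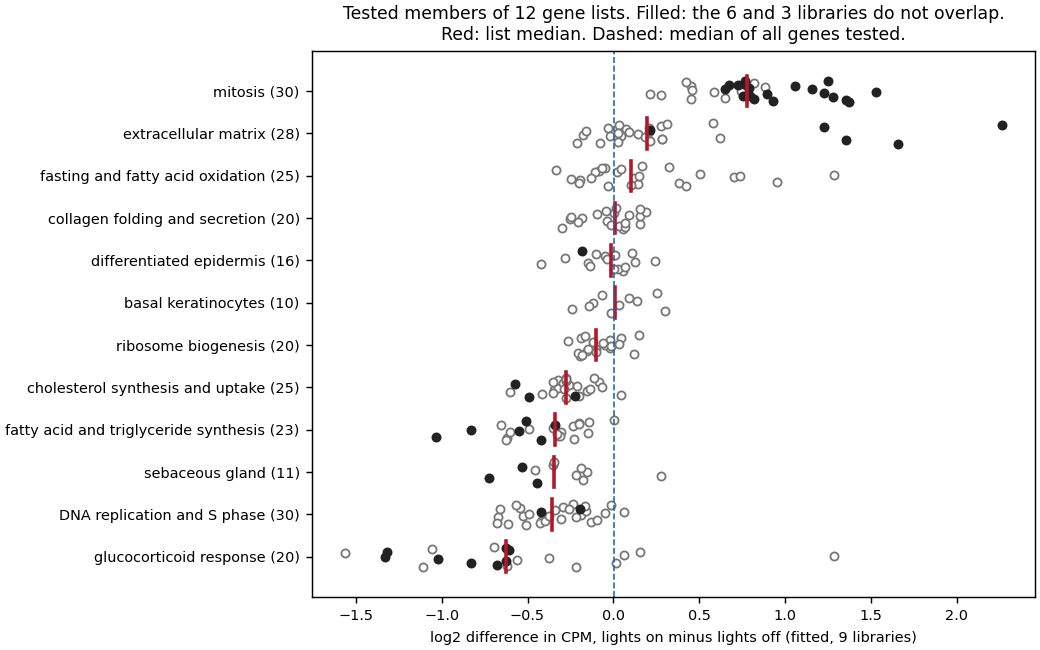
Fitted log2 difference, lights on minus lights off, of every tested member of 12 lists (circles, filled where the 6 and 3 libraries do not overlap), with the list median in red and the median of all genes dashed. The mitosis median lies at 0.78 with all 30 members above 0, and the medians of glucocorticoid response, DNA replication, sebaceous gland and fatty acid synthesis lie between -0.62 and -0.34.

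As a list, genes that build fat stood lower at lights on. Of 23 tested genes of fatty acid and triglyceride synthesis, 22 lay below 0, 12 were lower in every group and 6 did not overlap (Thrsp, Agpat2, Fasn, Mlxipl, Acaca and Fads1), beside 2.04% of all genes, with a median of -0.34. No member was called by edgeR over 9 or 24 libraries, 13 had an unadjusted p under 0.05 on the lower side, beside 6.68% of all genes, and DESeq2 called 3, beside 0.953%. Thrsp (Spot 14), a regulator of fat synthesis, was at 126.7 and 141.1 CPM in ED, 51.3 and 61.3 CPM in MD, and 91.8 and 109.9 CPM in EN at lights on, against 224.8, 165.4 and 170.0 CPM at lights off (-1.03, SE 0.148, adjusted p = 0.0663). Fasn, the fatty acid synthase, was at 1778 to 4003 CPM at lights on and 4192 to 4959 CPM at lights off (-0.55, SE 0.177). Acaca, the enzyme of the committed step, was at 395.7 to 656.75 CPM against 656.84 to 836.4 CPM, so that ED24 and MD12 nearly touched. Agpat2, an enzyme of triglyceride assembly, was at 10.3 to 40.2 CPM against 41.9 to 66.2 CPM. By group the list median was -0.41 for ED, -0.52 for MD and -0.26 for EN. Acly, which makes acetyl-CoA from citrate, was lower in ED (-1.04) and MD (-1.14) but higher in EN (0.39), and Scd2 was higher in EN too (1.45). Without ED24 and EN00, 8 of the 23 did not overlap on the lower side, beside 3.53% of all genes. In the 15 other libraries the list median was 0.01, and 12 of 23 members lay above 0.

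Cholesterol genes lay lower to a lesser degree. Of 25 tested, 24 were below 0, 11 were lower in every group and 3 did not overlap (Pmvk, Dhcr7 and Sc4mol, now named Msmo1), beside 2.04% of all genes, with a median of -0.28. By group the median was -0.56 for ED, -0.33 for MD and 0.03 for EN. Of the 25, 16 lay above 0 in the 15 other libraries, with a median of 0.02. Pmvk, a kinase of the mevalonate pathway, was at 27.7 to 37.0 CPM at lights on and 42.7 to 56.4 CPM at lights off (-0.57, SE 0.122, adjusted p = 0.1215), and was called lower in the 24-library fit (adjusted p = 0.0341).

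Markers of the sebaceous gland, the skin's main site of lipid secretion, lay lower too: 10 of 11 were below 0 and 3 did not overlap (Mc5r, Cidea and Awat1), beside 2.04% of all genes, with a median of -0.35. Their median was -0.04 in the 15 other libraries. Their summed level overlapped, at 2265 to 3003 CPM at lights on and 2686 to 3072 CPM at lights off. Cidea, a lipid droplet protein, was at 52.9 and 58.3 CPM in ED, 56.9 and 55.7 CPM in MD, and 65.3 and 60.1 CPM in EN at lights on, against 87.0, 80.8 and 84.6 CPM at lights off (-0.53, SE 0.0849, adjusted p = 0.0663). Mc5r, the melanocortin receptor of the gland, was at 5.42 to 7.13 CPM against 9.61 to 11.5 CPM (-0.72, SE 0.142). Adipocyte markers, 10 of 10 below 0 with a median of -0.40, had no member without overlap, and their sum ran from 1496 to 3627 CPM at lights on and from 2009 to 4604 CPM at lights off. The adipocyte median was -0.20 in the deposited RPKM.

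Other genes of smallest p belonged to none of these groups. On the higher side, Peg3, an imprinted zinc-finger gene expressed from the paternal copy, was at 78.4 to 115.8 CPM at lights on and 36.3 to 53.3 CPM at lights off (1.16, SE 0.173, adjusted p = 0.0663). Klhl13, an adaptor of a ubiquitin ligase, was at 11.9 to 19.6 CPM against 7.42 to 8.41 CPM (0.99, SE 0.153, adjusted p = 0.0663). Cxcl14, a chemokine of epithelia named after its values were seen, was at 89.96 to 126.9 CPM against 38.9 to 78.5 CPM (1.04, SE 0.172). On the lower side, Cys1, encoding the ciliary protein cystin, was at 4.44 and 4.30 CPM in ED, 2.42 and 2.04 CPM in MD, and 3.11 and 2.35 CPM in EN, against 8.14, 6.53 and 11.5 CPM at lights off. Its difference was -1.52 (SE 0.215, adjusted p = 0.0663), and its introns fell by 1.22 (adjusted p = 0.0431). This intron call too did not hold without ED24 and EN00.

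Apoa1, the main protein of high-density lipoprotein and a product of liver and gut, was named by the same rule. It was at 0.044 to 0.677 CPM at lights on, 4.42 CPM in MD12 and 7.94 CPM in EN12, but at 0.145 CPM in ED12. It was high in the 2 libraries with liver transcripts and not in the other lights-off library. Albumin (Alb) was at 39.0 CPM in MD12, 73.1 CPM in EN12, 3.20 CPM in ED12 and 2.21 to 11.0 CPM at lights on.

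Lists of other processes lay near the median of all genes, which was 0.00. Nucleotide excision repair had 26 tested genes, none without overlap and a median of -0.05; the p53 targets had 20, none without overlap and -0.07; and the interferon response had 22, none without overlap and -0.12. Immediate early genes had a median of -0.09, heat shock -0.04, ribosome biogenesis -0.10, basal keratinocytes 0.01 and differentiated epidermis -0.02. Genes of fasting and fatty acid oxidation had a median of 0.10, with no member without overlap, and their member of smallest p was Pdk4, which spares glucose, at 1.29 (SE 0.328, adjusted p = 0.1809).

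Ribosomal protein genes shifted with the table used. All 24 lay below 0 in the counts, with a median of -0.33, 2 without overlap on the lower side (2.04% of all genes) and 15 at an unadjusted p under 0.05 on that side (6.68%). In the 15 other libraries the 24 lay below 0 too, with a median of -0.14. In the deposited RPKM their median was -0.04 and none was without overlap. The file name ties these values to cqn, a method of correction for gene length and base composition. The 27 genes of oxidative phosphorylation had -0.17 in counts and 0.00 in RPKM. The mitosis, S phase, glucocorticoid and fatty acid medians in RPKM were 0.67, -0.34, -0.58 and -0.34. Differences also went with transcript length across genes: the longest annotated transcript had a median of 4308.5 bases in genes higher without overlap, 2434 bases in genes lower without overlap and 3341 bases in all genes tested, with a length known for 90.2, 90.3 and 88.2% of them. The rank correlation of length with the difference across 13879 genes, which are not independent replicates, was 0.311 in counts and 0.0703 in RPKM, and it was positive in each of the 6 pairs of a lights-on library with the lights-off library of its group, from 0.0507 to 0.345. The part of length in any single gene's difference was not tested.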

How the data were processed

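Total RNA of whole back skin was sequenced with a stranded total RNA kit, per the labels. The authors deposited raw read counts, as whole numbers, for the exons, introns and antisense strand of each gene model. They also deposited RPKM values, which the file name ties to cqn. The submitters' processing notes list TopHat2, SAMtools, HOMER and build mm10 (GRCm38) but no versions. Neither the labels nor the headers name the counting program or say how reads with several matches were treated. Values of genes with near-identical copies, such as Mt1 and Mt2, the ribosomal proteins and the Scd genes, are therefore uncertain. Every column matched 1 library's title, and 0 columns belonged to no sample.

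Where exon rows shared a symbol, the row of highest total stood for the gene, giving 29758 symbols. Genes were filtered with filterByExpr (minimum count 10, minimum total 15), scaled by TMM over 24 libraries, and tested with the quasi-likelihood F test of edgeR 4.0.16 in R 4.3.3. All adjusted p-values are Benjamini-Hochberg values over all genes tested, with a threshold of 0.05, and are edgeR's unless DESeq2 1.42.0 or limma 3.58.1 (on log2 of RPKM + 0.1 or + 1) is named. The model held feeding group and light. Log2 CPM used a prior count of 2. Group differences are means of log2 CPM. The test was also run on simulated counts, whose means and spread were taken from the real counts. No group has a second pool at the same hour and day, so ZT0 and ZT24 served as repeats. The interaction test, with 3 residual degrees of freedom, was set against the spread between these repeats. The fits of a common difference had 5 residual degrees of freedom over 9 libraries and 16 over 24. Their errors and p-values hold the spread between pools and any differences between feeding groups together. RefSeq supplied promoters and coordinates. Gene lengths are those of the longest GENCODE transcript.

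The members and lists were chosen with earlier results of these data known. Genes were named by rule: in each direction the 6 of smallest p with the same sign in every group, 1 to 3 genes of smallest p per pathway list, the clock list, 5 genes of the interaction test and 4 hair keratins. The other genes were named after their values were seen. A gene of the clock list is not reported here. Alternatives were other scaling, tests, filters, tables and sets of libraries.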

Additional observations from a re-analysis of the deposited data

Results flagged for a closer look

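In 3 of the named genes 1 of the 6 lights-on libraries lay far from the other 5: Agpat2 in MD00 (10.3 CPM, the lowest), Kif2c in ED24 (10.2 CPM, the highest) and Pmvk in ED24 (27.7 CPM, the lowest). Chance marks about 1 group in 20 in this way, and 128 genes were looked at.

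The difference between lights on and lights off was not the same in the 3 feeding groups, by edgeR's interaction test, for Nr1d1 (adjusted p = 8.206e-04), Dbp (adjusted p = 0.001928), Per2 (adjusted p = 0.006183), Myh7 (adjusted p = 0.006183), Nr1d2 (adjusted p = 0.006431), Alb (adjusted p = 0.03513), Per3 (adjusted p = 0.03513), Scd2 (adjusted p = 0.03513) and Angptl4 (adjusted p = 0.04035). In Nr1d1 the difference in MD exceeded that in ED by 5.19 and that in EN lay below that in MD by -3.02, and both pairs passed the test (adjusted p = 2.182e-04 and 0.004617). In Per2 the EN difference stood apart from ED by -3.30 (adjusted p = 0.0127) and from MD by -2.87 (adjusted p = 0.008065), while MD and ED differed by -0.43 (adjusted p = 1). Food had last been opened at a different number of hours before sampling in each group, so feeding time and group cannot be told apart here.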

How the results depend on the processing

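The count of called genes, 2 over 9 libraries, was 235 with DESeq2's Wald test, 75 with no filter on low counts, 95 over all 24 libraries, 76 over 24 without ED24 and EN00, 46 over 24 with the L code as a term, 4 with ZT0 alone, 6 with ZT24 alone, 4 without MD12 and EN12, and 0 without a feeding term and with limma on either RPKM scale. Leaving out each of the 9 libraries gave 0 to 18, the highest without ED00. The interaction count of 9 was 22 in a fit of 18 cells over 24 libraries, and the intron count of 60 was 0 without ED24 and EN00. Glucocorticoid members lower without overlap ranged from 8 to 13 (13 without ED12) and fatty acid members from 6 to 12 (12 without EN12) when single libraries were left out. The causes of these shifts were not tested.

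Of 2807 values of 128 named genes under an alternative, 2504 kept direction and side of the threshold, 244 passed only there, 21 no longer passed and 38 changed sign, in 17 genes. Without MD12 and EN12, where lights off rests on ED12 alone, Ahsg was 4.42, Alb 0.74, Apob 1.24, Cry1 0.17, Fga 0.41, Fkbp5 0.013, Hist1h3b 0.45, Scd1 0.015 and Zbtb16 0.073. Krt28 was -0.12 without ED24 and EN00 and -0.19 over 24 libraries without them. With the L code as a term Col1a1 was -0.070, Myh7 0.24, Nr1d1 0.49 and Scd1 0.0021. Nfil3 was -0.0080 with ZT24 alone. Rora was 0.0295 in RPKM + 0.1 and 0.0293 in RPKM + 1, and the oxidative phosphorylation median 0.0021 in the former. Nr1d1 was 0.24 without ED24 and EN00, 0.13 with ZT0 alone, 0.28 with ZT24 alone, 0.22 without a feeding term, 0.28 over 24 libraries without ED24 and EN00, and 0.27 and 0.24 in RPKM + 0.1 and + 1. With single libraries left out, Hist1h3b ran from -1.07 to 0.33, Myh7 from -2.05 to 0.13, Nfil3 from -0.46 to 0.75, Nr1d1 from -1.21 to 1.24, Rora from -0.29 to 0.024, Scd2 from -1.33 to 0.0017 and Usp2 from -0.34 to 0.042.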

Other observations

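Several signalling genes outside the groups above, named after their values were seen, were called in the fit over 24 libraries. Higher at lights on were Inhbb, which encodes an activin subunit (23.4 to 33.9 CPM at lights on, 15.2 to 19.4 CPM at lights off, 0.76 over 24 libraries, adjusted p = 0.0264), Cdon, a co-receptor for Hedgehog ligands (88.4 to 117.3 CPM and 64.3 to 71.4 CPM, 0.55, adjusted p = 0.0175), and Gpsm2, which orients the mitotic spindle (57.7 to 68.6 CPM and 38.2 to 46.8 CPM, 0.54, adjusted p = 0.0175). Trp53i11 was at 18.5 to 22.2 CPM and 10.8 to 13.1 CPM (0.73, adjusted p = 0.0175). Each of the 4 was without overlap.

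Lower at lights on were Stc2, a secreted glycoprotein (2.26 to 6.69 CPM and 9.31 to 13.1 CPM, -1.26, adjusted p = 0.0175), Mrap, the accessory protein of the melanocortin receptors (7.31 to 24.9 CPM and 32.6 to 40.1 CPM, -1.32, adjusted p = 0.0433), and Abcg2, a membrane transporter (23.5 to 29.1 CPM and 35.4 to 41.7 CPM, -0.57, adjusted p = 0.0175). Each was without overlap. Kcnj15, a potassium channel, was called too (-0.94, adjusted p = 0.0175), though MD00 at 30.2 CPM lay above ED12 at 25.5 CPM. In the 15 libraries outside the contrast the differences were 0.12 for Inhbb, 0.02 for Cdon, 0.09 for Gpsm2, 0.09 for Trp53i11, -0.35 for Stc2, -0.09 for Mrap, -0.12 for Abcg2 and -0.18 for Kcnj15, each with an adjusted p of 0.9999.

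Among immune and vessel markers, the macrophage and dendritic cell list had 12 of 12 members below 0, with a median of -0.18 in counts and -0.08 in RPKM and no member without overlap. Its summed level was 1432 to 2259 CPM at lights on and 1542 to 2466 CPM at lights off. Of 10 endothelial markers 8 lay above 0, with a median of 0.14 and 1 without overlap (Kdr, 0.48). Pigment cell markers had 8 of 8 above 0 with a median of 0.40, and 0.02 without ED24 and EN00.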
